A study of Mus musculus with 12 samples.

Results

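The 6 arrays compared here, of 12 in the study, show what still differed from wild type in mouse granulocyte-monocyte progenitors (GMP) whose Runx1 alleles were deleted and in which a RUNX1-ERt2 fusion protein had been induced. They were chosen by their titles: 2 arrays of RUNX1-ERt2 GMP and 4 arrays of wild-type GMP. The wild-type cells came straight from the bone marrow of Runx1+/+-Tg(vav-Cre) mice; the vav-Cre transgene drives Cre recombinase in blood cells. The RUNX1-ERt2 cells started as marrow of Runx1fl/fl-Tg(vav-Cre) mice, which had been given the cytostatic agent 5-fluorouracil at 150 mg/kg 3 days earlier. The marrow was infected with a MIG retrovirus that encodes GFP along with RUNX1-ERt2 and was grafted into lethally irradiated mice. After 6 weeks these mice received tamoxifen (49.5 µg/g) on 3 days, and GMP that were viable and GFP-positive were sorted 24 h later. The study's other 6 arrays serve as a reference for that procedure without RUNX1 in the virus: native GMP of Runx1fl/fl-Tg(vav-Cre) mice (called Runx1-deleted here, 4 arrays) and grafted GMP with a virus for ERt2 alone (ERt2, 2 arrays). The protocol names tamoxifen for a portion of the grafted mice, whereas the labels of all 4 grafted samples state it. The labels give no age or sex and do not say whether replicates came from separate animals, so the p-values rest on a spread among samples that may be technical only. The RUNX1-ERt2 and wild-type groups differ in Runx1 genotype, transplantation into irradiated mice, 5-fluorouracil, virus, tamoxifen and array slide all at once. These cannot be told apart.

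RUNX1 is the DNA-binding subunit of core-binding factor; with its partner CBFβ it binds the letters TGTGGT and activates or represses genes of blood stem cells, megakaryocytes, lymphocytes and myeloid cells. It is required for the first definitive blood stem cells, and it is among the genes most often mutated in acute myeloid leukemia. An ERt2 fusion is kept out of action in the cytoplasm until a tamoxifen metabolite binds its hormone-binding domain. GMP lie downstream of stem cells and upstream of neutrophils and monocytes, express granule proteases such as myeloperoxidase, and have largely left the erythroid, megakaryocytic and lymphoid options behind.

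Each value below is a log2 intensity of a gene's brightest probe relative to the 75th percentile of its own array, so a value of 0 is the level that 25% of the probes exceed. Of the probes, 53.5% to 63.1% were well above background on each of the 12 arrays, and no spot was saturated. The wild-type arrays lay on slides 1 and 2, which they share with the Runx1-deleted arrays; the ERt2 arrays lay on slide 3 and the RUNX1-ERt2 arrays on slide 4. The grafted arrays were dimmer, with median signals of 43.1 to 59.7 against 65.4 to 98.6 for the native ones. All 9 GMP markers fixed for the check (Cd34, Kit, Fcgr3, Fcgr2b, Mpo, Elane, Ctsg, Prtn3 and Cebpa) were well above background on every array of both groups, with a summed linear level of 547 to 785 in wild type and 418 to 587 with RUNX1-ERt2 (1 is the 75th percentile).

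A probe for mouse Esr1, an estrogen receptor gene, was high in both groups of virus-carrying cells. Its letters are given because they lie in the hormone-binding region that ERt2 fusions retain (chr10:5489352-5489411, mm9, minus strand):
Esr1 probe: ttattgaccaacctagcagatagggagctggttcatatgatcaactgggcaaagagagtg
Only 1 of the 3 forward reading frames of these 60 bases is free of stop codons, and it encodes a stretch of the receptor's ligand-binding domain. The probe measured −3.53, −3.47, −2.88 and −3.35 in the wild-type arrays and 0.23 and 0.16 in the RUNX1-ERt2 arrays, a difference of 3.50 ± 0.25 (standard error; limma adjusted p = 6.1e-06). The groups do not overlap; over all genes tested, both RUNX1-ERt2 arrays lay above every wild-type array for 27.8% and below for 27.7%. With ERt2 alone it measured −1.09 and −0.65, against −4.43, −4.45, −4.68 and −4.45 in Runx1-deleted GMP, a difference of 3.63 ± 0.25 (adjusted p = 2.3e-06). The difference between these 2 differences, −0.12 ± 0.32, did not pass (adjusted p = 0.88). The other tested Esr1 probe (chromosome 10, 5343056 to 5343115, mm9) was lower with RUNX1-ERt2 than in wild type (−0.92), and the 2 remaining Esr1 probes did not enter the test. Whether the high probe, of mouse sequence, reads the viral transcript was not tested, as no sequence of the virus's ERt2 domain was given. 

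The RUNX genes themselves were not all back at wild-type levels. Runx1 measured 1.18, 1.32, 2.23 and 2.13 in the wild-type arrays and 2.33 and 1.92 in the RUNX1-ERt2 arrays (0.41 ± 0.39, adjusted p = 0.46; 95% interval −0.44 to 1.27). Its second probe was at 1.14, 1.22, 1.15 and 0.86 in wild type and 1.76 and 1.56 with RUNX1-ERt2, without overlap. The first probe was higher in Runx1-deleted GMP, at 3.12, 2.87, 3.41 and 4.20, and in ERt2 GMP, at 3.29 and 3.14, than in wild type. The positions of both probes with respect to the floxed part of the gene and to the virus are not stated in the labels or files; they check neither the deletion nor the fusion. Runx3, a paralog that directs cytotoxic T cell and dendritic cell programs, fell. It stood at 0.19, 0.01, 0.18 and 0.30 in the wild-type arrays and at −2.01 and −2.34 in the RUNX1-ERt2 arrays, a difference of −2.35 ± 0.17 (adjusted p = 8.5e-06), 5.08-fold lower at this probe. Its other tested probe differed by less and overlaps, at −2.79 and −3.06 with RUNX1-ERt2 against −2.02, −1.80, −2.27 and −2.94 in wild type. Between ERt2 and Runx1-deleted GMP the 2 probes went opposite ways, by −0.95 ± 0.17 at the first and 0.89 at the other; at the first, the difference between the comparisons was −1.40 ± 0.23 (adjusted p = 0.0049). Runx2, the bone-forming paralog, gave −0.64 ± 0.22 (adjusted p = 0.055), and Cbfb gave −0.23 ± 0.19 (adjusted p = 0.41); neither passed. Of the 6 measured Runx family members and partners, Runx3 alone passed in this comparison. Over all genes tested, 11.6% rose and 15% fell. Of 22 genes listed as RUNX1 targets in other work, 3 rose and 5 fell (median −0.12; 2 to 5 and 3 to 5 with 1 array left out).

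The regions upstream of Runx3 and of 4 other genes described below are printed because each holds the letters that RUNX proteins bind. They are the 250 bases before the first listed RefSeq start of each gene (GRCm38.p6), 5′ to 3′ on the gene's strand, with TGTGGT and its reverse complement ACCACA in capitals:
Runx3 (chr4:135120395-135120644, plus strand): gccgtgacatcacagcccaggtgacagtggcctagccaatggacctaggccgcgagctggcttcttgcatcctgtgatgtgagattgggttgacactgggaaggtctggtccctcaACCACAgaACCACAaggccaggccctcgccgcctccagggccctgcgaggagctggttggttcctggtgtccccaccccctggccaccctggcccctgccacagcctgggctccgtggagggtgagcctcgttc
Runx2 (chr17:44814628-44814877, minus strand): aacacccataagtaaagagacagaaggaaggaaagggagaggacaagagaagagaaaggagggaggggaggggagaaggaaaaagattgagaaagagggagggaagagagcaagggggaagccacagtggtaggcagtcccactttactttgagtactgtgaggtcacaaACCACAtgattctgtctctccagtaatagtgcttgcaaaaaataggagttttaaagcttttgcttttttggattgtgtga
Mcpt8 (chr14:56085198-56085447, minus strand): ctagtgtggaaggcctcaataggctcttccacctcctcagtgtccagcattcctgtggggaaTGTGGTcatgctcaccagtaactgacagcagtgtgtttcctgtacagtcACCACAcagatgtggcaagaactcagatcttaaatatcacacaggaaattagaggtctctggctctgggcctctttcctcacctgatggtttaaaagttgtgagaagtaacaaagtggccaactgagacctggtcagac
Fcer1a (chr1:173227230-173227479, minus strand): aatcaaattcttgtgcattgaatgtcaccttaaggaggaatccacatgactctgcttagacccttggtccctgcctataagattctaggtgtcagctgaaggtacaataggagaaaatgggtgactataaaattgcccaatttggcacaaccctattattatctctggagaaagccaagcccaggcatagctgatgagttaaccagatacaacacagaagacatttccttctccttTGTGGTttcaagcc
Igll1 (chr16:16863986-16864235, minus strand): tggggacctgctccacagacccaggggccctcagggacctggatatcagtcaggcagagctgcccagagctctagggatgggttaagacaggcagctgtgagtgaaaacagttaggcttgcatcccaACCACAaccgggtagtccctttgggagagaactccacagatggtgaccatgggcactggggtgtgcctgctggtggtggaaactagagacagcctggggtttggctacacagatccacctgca
The Runx3 stretch holds a pair of adjacent copies, which begin at −134 and −126 relative to the start. These 5 were chosen for display after their letters were read. Over 27025 promoter windows in the table, 14.2% held the motif on either strand, and the share was 11.3% among the 11092 tested genes with a window. Among tested genes that were higher with RUNX1-ERt2 it was 11.2% (158 of 1417), and among those that were lower 11.9% (164 of 1373). A match of 6 letters is a description of the sequence, not evidence of binding.

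Differences from wild type were widespread. Of 17659 genes tested, 2054 were higher with RUNX1-ERt2 (11.6%) and 2654 were lower (15%) at an adjusted p under 0.05, 26.7% in either direction. The counts in the gene lists below stand against these shares. The median difference over all genes was 0.02. The lower genes had moved further: 333 fell by more than 3 log2 units and 127 rose by more. Without RUNX1-ERt2 replicate 1 the counts were 1309 and 1987, and without replicate 2 they were 1396 and 1970; the single array left is then assumed to vary like the other groups. The split depends on scaling. With each array centred on its median, which raises the median difference of all genes to 0.15, 54.9% of the calls were higher, against 43.6% here. Probes rich in G and C read higher in the RUNX1-ERt2 arrays, with a median difference from −0.19 at 34% to 38% GC up to 0.36 at 55% GC and above. The same medians were −0.23 and 0.52 between ERt2 and Runx1-deleted GMP, and −0.04 in both classes between Runx1-deleted and wild type.

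The comparison of ERt2 with Runx1-deleted GMP takes the step from native to grafted cells with Runx1 deleted on both sides and no RUNX1-ERt2 virus. The main comparison also crosses from wild-type to deleted Runx1 alleles, which this one does not. The comparison of ERt2 with Runx1-deleted GMP shares no array with the main one, although its native arrays lie on the same slides. It called 3500 genes higher (19.8%) and 3178 lower (18%). Of the genes higher with RUNX1-ERt2 than in wild type, 56.8% were also higher with ERt2 than in Runx1-deleted GMP (1167 genes, 33.3% of the second list). Of the lower genes, 72.6% were lower in both (1927 genes, 60.6% of the second list), and 140 genes went opposite ways. The correlation of the differences was 0.618 (Pearson) across genes, and genes do not count as independent replicates. The 2 differences were unlike each other, by a test of their difference, for 1469 genes (8.32%). The tested value also equals Runx1-deleted minus wild type plus RUNX1-ERt2 minus ERt2. A gene that differs after deletion can therefore pass this test with equal levels in both grafted groups. Among the 4708 genes called in the main comparison, 332 of the higher and 612 of the lower ones passed this test too (5.35% of all genes); by its own sign, the test passed in the higher direction for 4.48% and in the lower for 3.84% of all genes. Without ERt2 replicate 2 the comparison of ERt2 with Runx1-deleted GMP called 2113 genes higher and 2554 lower, and 499 and 361 genes passed the test of the difference, against 791 and 678 with all arrays. Without wild-type replicate 3 the latter counts were 514 and 416, and without RUNX1-ERt2 replicate 2 they were 528 and 407.

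**Figure D1:**
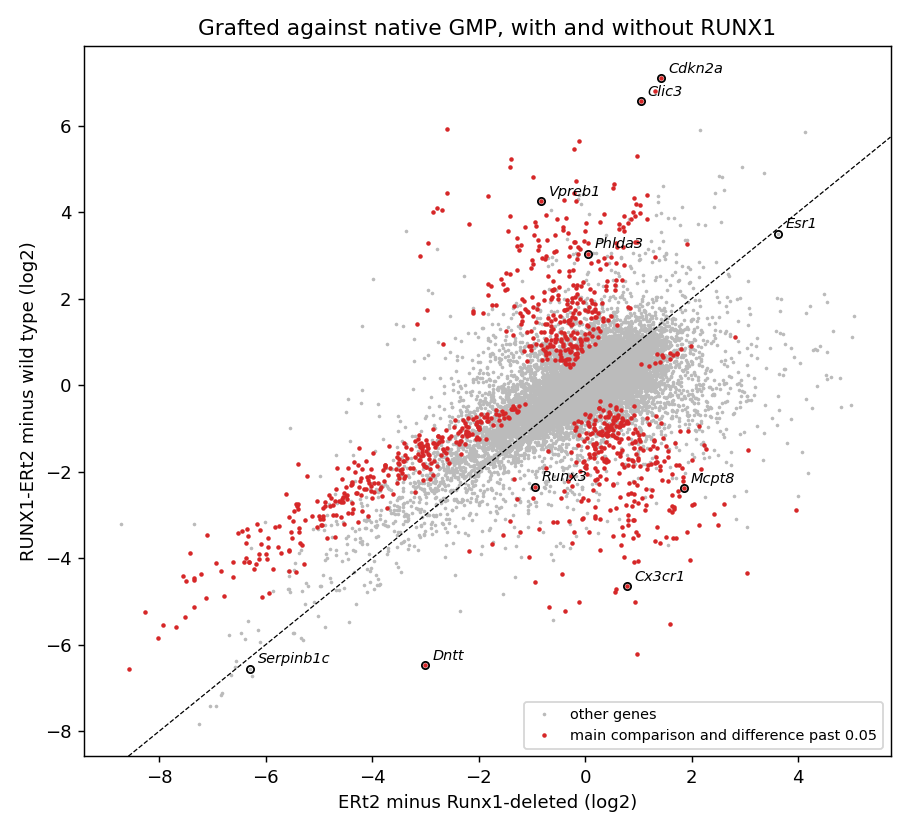
Each point is a gene; the horizontal axis is the log2 difference ERt2 minus Runx1-deleted and the vertical axis RUNX1-ERt2 minus wild type, and coloured points are past an adjusted p of 0.05 both in the main comparison and in the test of the difference between the 2. Points near the diagonal, such as Serpinb1c and Esr1, moved alike in both; Cdkn2a and Vpreb1 lie above it and Dntt and Cx3cr1 below.

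Several genes that restrain the cell cycle or respond to p53 were higher in RUNX1-ERt2 GMP than in wild type. Cdkn2a, which encodes the CDK inhibitor p16INK4a and the p53 activator p19ARF, was among the genes that rose. It measured −8.18, −7.51, −5.10 and −7.60 in wild type, where it was well above background on 1 array of 4, and 0.06 and −0.06 with RUNX1-ERt2. The fitted difference was 7.09 ± 0.89 (adjusted p = 0.00032; 3.46 with normexp background correction), and a second Cdkn2a probe was higher by 3.57. Runx1-deleted GMP lay between, at −4.50, −5.24, −3.27 and −3.17, as did ERt2 GMP at −2.23 and −3.02. Cdkn2b, the neighbouring gene for p15INK4b, was not well above background on any wild-type array and stood at −4.16 and −3.92 with RUNX1-ERt2, at least 3.39-fold higher (adjusted p = 0.0011; 0.54 with normexp background correction). Such a lower bound sets the bright group against the dimmest signal that counts as detected on the dim group's arrays.

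Cdkn1a, the p21 inhibitor that p53 induces, rose from −1.96, −1.16, −0.96 and −1.55 to 1.10 and 0.87. Its difference was 2.39 ± 0.42 (adjusted p = 0.0024); of its other tested probes, 1 was higher by 3.69 and 1 gave 0.04. Phlda3, a p53-induced inhibitor of Akt, stood at −0.79, −0.79, −0.78 and −0.96 in wild type and at 2.41 and 2.00 with RUNX1-ERt2 (3.04 ± 0.39, adjusted p = 0.00035). The 4 wild-type arrays lie close together and both RUNX1-ERt2 arrays are far above them. Perp, a p53 target in cell adhesion and death, rose by 3.03 ± 0.41 (adjusted p = 0.00052) and Bbc3, which encodes the pro-apoptotic protein PUMA, by 1.92 ± 0.37 (adjusted p = 0.0039). None of these 4 genes passed between ERt2 and Runx1-deleted GMP, where the differences were −0.05 ± 0.42 for Cdkn1a, 0.04 ± 0.39 for Phlda3, −0.14 ± 0.41 for Perp and −0.25 ± 0.37 for Bbc3. The test of the difference between the comparisons passed for all of them (adjusted p of 0.0058 to 0.023) and for Cdkn2a (0.015). Bbc3 and Perp were already above wild type in Runx1-deleted GMP, by 1.11 ± 0.22 and 0.89 ± 0.25 (limma adjusted p = 0.0057 and 0.026). So was Cdkn2a, by 3.05 ± 0.54 (limma adjusted p = 0.0031). Cdkn1a (−0.30 ± 0.25) and Phlda3 (0.025 ± 0.23) were not. Between RUNX1-ERt2 and ERt2 GMP Bbc3 did not pass (1.06 ± 0.42, limma adjusted p = 0.19). Cdkn2a did not pass there either (2.63 ± 1.03, limma adjusted p = 0.18), whereas Cdkn1a, Phlda3 and Perp did.

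Of the 23 measured p53 targets, 10 rose and none fell, with a median difference of 0.49 against 0.02 over all genes, where 11.6% rose. In 5 of them the call held in every other setting in which the gene was tested. Between ERt2 and Runx1-deleted GMP 4 rose and 3 fell (median −0.14), where 19.8% of all genes rose and 18% fell. The test of the difference passed for 7 in the higher direction, where 4.48% of all genes passed. Of 19 cell cycle brakes and D cyclins, 6 rose and 1 fell. Without wild-type replicate 3, 3 of them rose, in a fit that called 1541 of the 17659 genes higher. Genes of the cell cycle itself (cyclins, replication and mitosis factors) showed no such shift: of 38, none rose and 2 fell, with a median of 0.00 (−0.02 to 0.14 under the other scalings). None of the 2 falls held without wild-type replicate 3 or without RUNX1-ERt2 replicate 2.

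**Figure D2:**
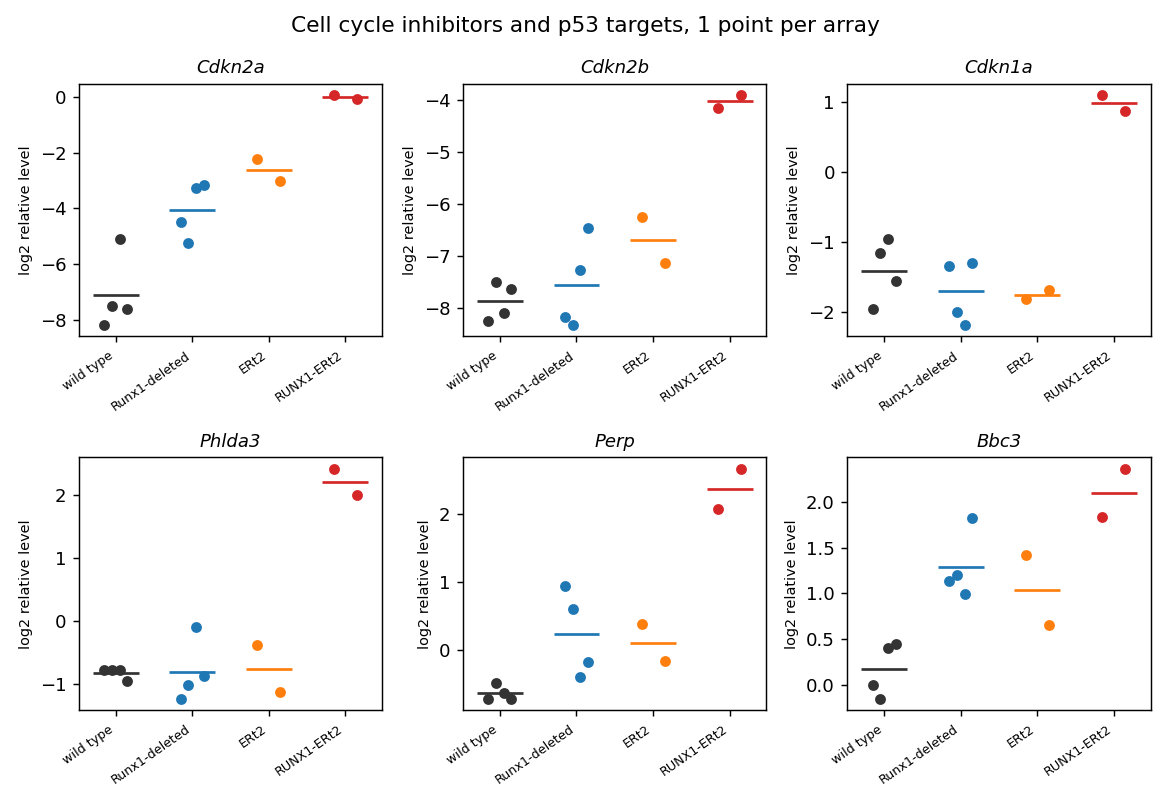
Log2 level relative to the 75th percentile of the array, 1 point per array, for 6 cell cycle inhibitors and p53 targets in the 4 groups; the short line is the group mean. The 2 RUNX1-ERt2 arrays lie above all 4 wild-type arrays for every gene shown, and for Cdkn1a and Phlda3 the other 3 groups overlap.

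Myeloid identity was close to wild type for the granule genes and reduced for receptors and monocyte genes. Of 18 primary granule and promyelocyte genes, 1 rose and 2 fell (median −0.37), where 11.6% of all genes rose and 15% fell. Between Runx1-deleted and ERt2 GMP 14 rose, where 19.8% of all genes rose. The test of the difference passed for 8, in each of which the change from native to grafted was lower with RUNX1-ERt2. In that direction 3.84% of all genes passed. With 1 array left out, 0 to 2 rose and 0 to 3 fell. Of 32 late neutrophil genes, 2 rose and 1 fell (0 rose without RUNX1-ERt2 replicate 1), and 15 rose between Runx1-deleted and ERt2 GMP. Of 18 GMP identity genes 4 fell and none rose, where 15% of all genes fell; 1 fell without RUNX1-ERt2 replicate 2, and 2 rose and 2 fell without wild-type replicate 3. The late neutrophil markers Ltf, Camp, Ngp, Ly6g, Mmp8 and Retnlg summed to 21.7 and 22.7 in the RUNX1-ERt2 arrays, inside the wild-type range of 6.18 to 59.0, and to 148 and 237 with ERt2. Padi4, the enzyme that citrullinates histones in neutrophils, fell from 0.11, 0.45, 0.77 and 0.47 to −1.23 and −1.51 (−1.81 ± 0.31, adjusted p = 0.0021); a second probe gave −0.36. Slpi, a protease inhibitor of granulocytes, fell by 2.98 ± 0.45 (adjusted p = 0.001) and rose by 2.42 ± 0.45 between Runx1-deleted and ERt2 GMP.

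Several monocyte genes fell. Cx3cr1, the fractalkine receptor of monocytes, measured 1.55, 1.67, 1.33 and 0.83 in wild type and −3.1 and −3.51 with RUNX1-ERt2, a drop to well under the lowest wild-type array (−4.65 ± 0.74, adjusted p = 0.0015, −4.58 at a second probe). F13a1, the coagulation factor subunit that marks monocyte progenitors, went from 4.24, 4.12, 3.96 and 3.09 to 1.23 and −0.32 (−3.40 ± 0.62, adjusted p = 0.0032). Ccr2, the receptor through which monocytes leave the marrow, went from 0.87, 0.84, 0.34 and −0.30 to −2.04 and −2.67 (−2.80 ± 0.49, adjusted p = 0.0025). The groups do not overlap for any of the 3 genes. F13a1 rose between Runx1-deleted and ERt2 GMP (1.92 ± 0.62, adjusted p = 0.034). The test of the difference passed for F13a1 (0.0033) and Cx3cr1 (0.0078) and not for Ccr2 (0.11). Cx3cr1 (−3.006 ± 0.448) and Ccr2 (−1.336 ± 0.296) were already lower than wild type in Runx1-deleted GMP (limma adjusted p = 0.0013 and 0.0097). F13a1 was not (0.084 ± 0.375). Between RUNX1-ERt2 and ERt2 GMP F13a1 passed (−5.4 ± 0.719, limma adjusted p = 0.0014). Cx3cr1 (−2.422 ± 0.859) and Ccr2 (−0.547 ± 0.567) did not pass there (limma adjusted p = 0.14 and 0.71). Of 25 monocyte and macrophage genes none rose and 6 fell, with a median of −0.78, where 15% of all genes fell; without RUNX1-ERt2 replicate 2, 3 fell. The list moved the other way between Runx1-deleted and ERt2 GMP (median 1.33). There 7 rose and 1 fell, where 19.8% of all genes rose and 18% fell. In sorted but mixed cells such as these, fewer cells of a kind and less RNA per cell cannot be told apart. Macrophage markers (Adgre1, the C1q genes, Vcam1, Cd163 and Cd5l) summed to 1.01 and 1.19, against 0.917 to 3.11 in wild type, with Cd163 not well above background on either RUNX1-ERt2 array; their part in the result was not tested.

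Several receptors for cytokines were lower. Flt3, the receptor tyrosine kinase of multipotent and lymphoid-primed progenitors, stood at 3.19, 3.11, 3.38 and 3.06 in wild type and at 0.99 and 1.42 with RUNX1-ERt2 (−1.98 ± 0.33, adjusted p = 0.0019); its 2 other tested probes were lower as well. Csf1r, the receptor for macrophage colony-stimulating factor, passed narrowly (−1.67 ± 0.52, adjusted p = 0.039) and missed the threshold when any 1 of 7 arrays was left out (highest adjusted p = 0.18, without RUNX1-ERt2 replicate 2). Of 33 cytokine receptors, 9 fell and 1 rose (median −0.42), where 15% of all genes fell. The test of the difference between the comparisons passed for 11 members in the lower direction and for 1 in the higher. Over all genes it passed for 3.84% in the lower direction and 4.48% in the higher.

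Genes of the basophil and mast cell program split. Fcer1a, the α chain of the high-affinity IgE receptor, had been at −0.42, −0.75, −0.51 and 0.04 in wild type and measured −6.21 and −3.31 with RUNX1-ERt2 (−4.35 ± 0.94, adjusted p = 0.0075; −2.77 with normexp); the 2 arrays differ widely and both lie below wild type. Mcpt8, a basophil protease, fell from 2.46, 2.08, 2.23 and 2.11 to −0.20 and −0.13 (−2.39 ± 0.21, adjusted p = 2.8e-05). Mcpt8 rose between Runx1-deleted and ERt2 GMP, by 1.85 ± 0.21 (adjusted p = 0.00012). It was already lower than wild type in Runx1-deleted GMP (−3.34 ± 0.13). The Mcpt8 means were −1.12 in Runx1-deleted, 0.73 in ERt2 and −0.17 in RUNX1-ERt2 GMP. Fcer1a was not well above background on any Runx1-deleted array and was on 1 of 2 arrays each of ERt2 and RUNX1-ERt2 GMP. The upstream sequences of both genes, printed above, hold the RUNX letters. Other genes of this program were higher. Il4, the cytokine of type 2 immunity, rose from −3.60, −3.91, −3.54 and −3.19 to 0.12 and −0.07 (3.58 ± 0.22, adjusted p = 2.2e-06), and Cd200r3, an activating receptor of basophils and mast cells, rose from −4.14, −4.47, −4.80 and −4.85 to −1.30 and −1.19 (3.32 ± 0.36, adjusted p = 0.00014). Neither Il4 (−0.41 ± 0.22) nor Cd200r3 (−0.19 ± 0.36) passed between Runx1-deleted and ERt2 GMP. The test of the difference passed for both (adjusted p = 9.7e-05 and 0.0018). Both were already above wild type in Runx1-deleted GMP, by 2.84 ± 0.13 and 4.16 ± 0.22. The Il4 means were −0.72 in Runx1-deleted, −1.13 in ERt2 and 0.03 in RUNX1-ERt2 GMP. Those of Cd200r3 were −0.41, −0.59 and −1.25, lowest with RUNX1-ERt2. Of 24 measured eosinophil, basophil and mast cell genes 5 rose and 2 fell (median −0.51; 4 fell without Runx1-deleted replicate 3). The markers Mcpt8, Prss34, Fcer1a, Cpa3 and Ms4a2 summed to 34.1 and 44.8 with RUNX1-ERt2 and to 28.9 and 45.1 with ERt2, both above the wild-type range of 18.6 to 22.5; their part in the result was not tested.

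Part of the erythroid genes were higher than in wild type, and among B lineage genes a pair rose and others fell. The shares over all genes were 11.6% higher and 15% lower. Alas2, the erythroid enzyme that starts heme synthesis, measured −2.49, −3.11, −2.99 and −3.69 in wild type and 1.86 and 1.61 with RUNX1-ERt2 (4.80 ± 0.64, adjusted p = 0.00045). The adult β-globin gene Hbb-bt went from 2.94, 2.30, 2.62 and 1.98 to 7.14 and 6.57 (4.40 ± 0.59, adjusted p = 0.00048). Hba-a1 went from 3.00, 2.40, 2.31 and 1.62 to 6.12 and 5.99 (3.72 ± 0.64, adjusted p = 0.0022). Both RUNX1-ERt2 arrays lie above every wild-type array for these genes. Probes cannot be relied on to separate the near-identical globin copies, so the globin genes, which the count below takes one by one, may be a single signal. Alas2 and Hba-a1 also rose between Runx1-deleted and ERt2 GMP (2.57 ± 0.64 and 2.12 ± 0.64). In Runx1-deleted GMP, Alas2, Hbb-bt and Hba-a1 were above wild type already, by 2.16 ± 0.38, 1.96 ± 0.35 and 2.07 ± 0.38. Erfe, the hormone erythroferrone of erythroblasts, was well above background on 1 wild-type array; it stood at −5.80, −6.10, −6.32 and −6.67 there and −0.71 and −2.42 with RUNX1-ERt2 (4.66 ± 0.81, adjusted p = 0.0023; 2.04 with normexp) and did not pass with ERt2 (0.54 ± 0.81). Of 29 erythroid genes 12 rose and 1 fell (median 1.47), and 7 rose without RUNX1-ERt2 replicate 1. The erythroid markers Klf1, Slc4a1, Alas2, Epor and Car1 summed to 24.1 and 30.6, above the wild-type range of 12.7 to 23.3, and all 5 were well above background in both groups; the part of erythroid cells in the sort was not tested.

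Dntt, the terminal transferase of early lymphoid progenitors, had the largest fall among the named genes that were still well above background with RUNX1-ERt2. It measured 3.03, 3.15, 2.48 and 2.65 in wild type and −2.96 and −4.34 with RUNX1-ERt2, which is 88.9-fold lower (−6.47 ± 0.50, adjusted p = 1e-05). It also fell between Runx1-deleted and ERt2 GMP, by less: −3.0 ± 0.50, with a difference between the comparisons of −3.47 ± 0.65 (adjusted p = 0.0095). Vpreb1 and Igll1 encode the surrogate light chain that pairs with immunoglobulin heavy chain in early B cells. Vpreb1 rose from −0.49, −0.80, −0.47 and −0.24 to 3.00 and 4.50 (4.25 ± 0.51, adjusted p = 0.00023) and Igll1 from −4.22, −5.52, −4.48 and −5.68 to −1.28 and 0.14 (4.40 ± 0.98, adjusted p = 0.0087; 2.54 with normexp), with Igll1 well above background on 2 of 4 wild-type arrays. Replicate 2 is the higher one for both genes. Neither passed between Runx1-deleted and ERt2 GMP (−0.82 ± 0.51 and −0.12 ± 0.98), and the test of the difference passed for Vpreb1 (0.0015) and missed the threshold for Igll1 (0.056). Most other B lineage genes lay below wild type. Fcrla, an Fc receptor-like protein of B cells, was not well above background with RUNX1-ERt2 and had been at −2.90, −3.18, −4.29 and −3.86 in wild type, at least 3.69-fold lower (adjusted p = 0.0049; 0.083 with normexp background correction). In all, 2 of 18 B lineage genes rose and 8 fell (median −1.48), where 11.6% of all genes rose and 15% fell. Of the B cell markers, Ms4a1 and Pax5 were not well above background on either RUNX1-ERt2 array, and these and Cd79a and Cd79b summed to 5.12 and 5.59 against 4.37 to 4.97 in wild type.

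Gzmb, the cytotoxic protease granzyme B, fell from −0.20, 0.49, 0.92 and 0.48 to −5.26 and −2.76 (−4.43 ± 0.83, adjusted p = 0.0035), and Prf1, perforin, from −1.01, −0.79, −1.10 and −1.25 to −2.24 and −1.88 (−1.02 ± 0.19, adjusted p = 0.0032). Of 24 T and NK cell genes none rose and 3 fell, a share below that of all genes. Of the T and NK cell markers Ncr1 was not well above background on the RUNX1-ERt2 arrays.

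**Figure D3:**
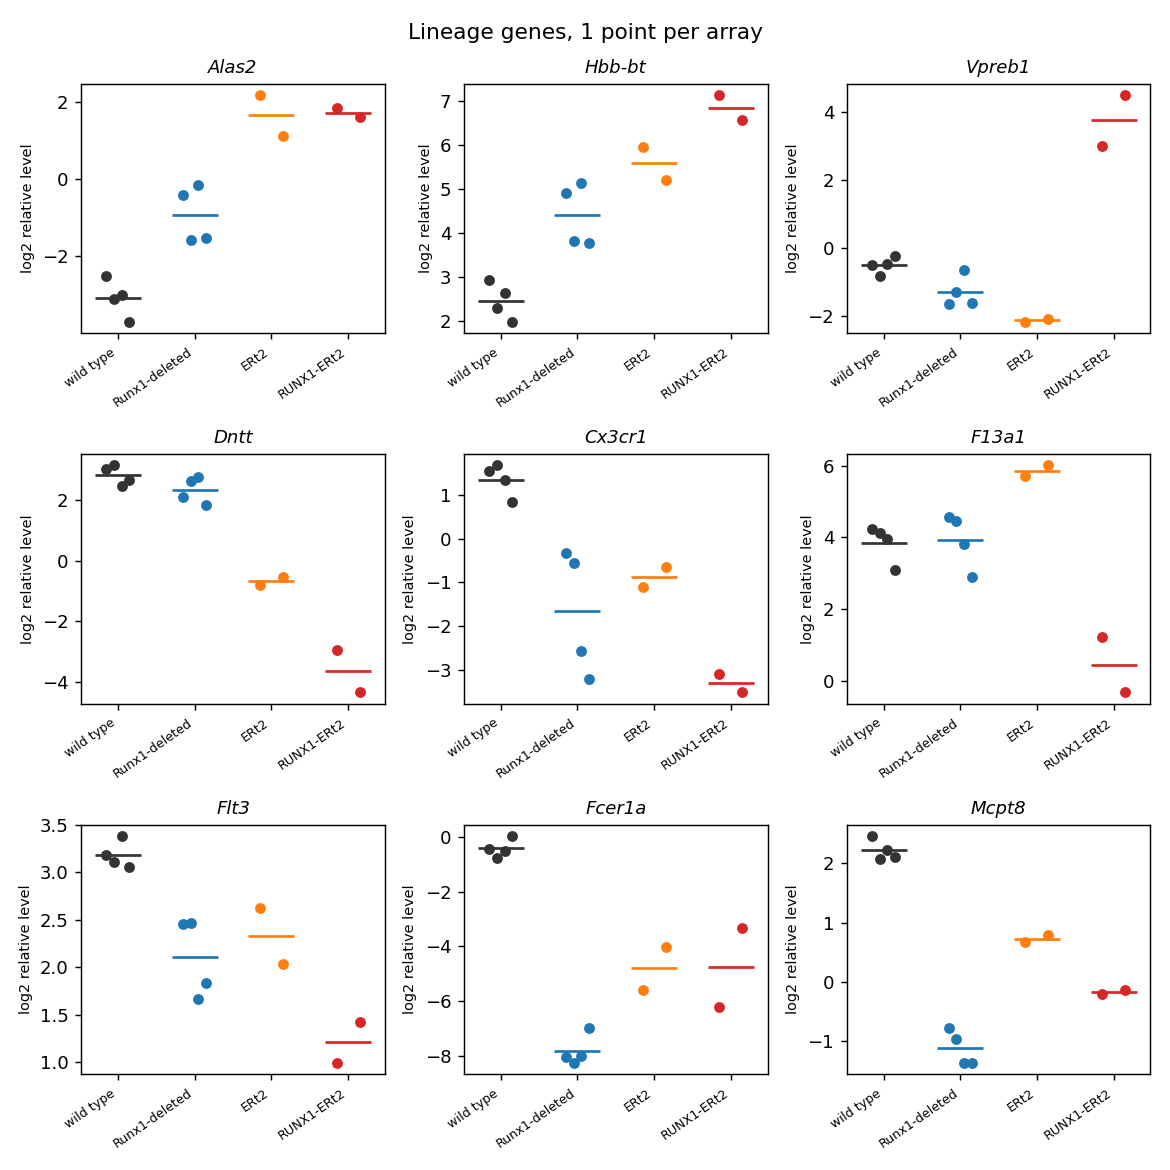
Log2 level relative to the 75th percentile of the array, 1 point per array, for 9 genes of the erythroid, lymphoid, monocyte and basophil programs; the short line is the group mean. Alas2, Hbb-bt and Vpreb1 lie above wild type and Dntt, Cx3cr1, F13a1, Flt3, Fcer1a and Mcpt8 below it in both RUNX1-ERt2 arrays.

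Megakaryocyte genes gave no single direction. Itga2b, the integrin chain CD41 of megakaryocytes and early stem cells, rose from 0.92, 0.89, 1.27 and 1.88 to 3.25 and 3.86 (2.31 ± 0.44, adjusted p = 0.004), and Selp, the adhesion molecule P-selectin of platelet granules, from −2.32, −1.76, −1.89 and −1.78 to −0.24 and −0.32 (1.66 ± 0.38, adjusted p = 0.011). Both were also above wild type in Runx1-deleted GMP, by 2.21 ± 0.27 and 2.18 ± 0.23. The Itga2b means were 3.45 in Runx1-deleted, 3.215 in ERt2 and 3.55 in RUNX1-ERt2 GMP. Those of Selp were 0.25, 1.30 and −0.28, lowest with RUNX1-ERt2. In all 3 of 33 members rose and 3 fell. Without RUNX1-ERt2 replicate 1, 10 rose and 1 fell; the 4 markers Pf4, Itga2b, Gp9 and Vwf summed to 13 in replicate 1 and 39.1 in replicate 2, against 7.02 to 11.7 in wild type. The 2 RUNX1-ERt2 arrays therefore differ in this program by more than the wild-type arrays do.

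Adhesion molecules changed in both directions, where 11.6% of all genes rose and 15% fell. Jam3, a junctional molecule through which blood progenitors hold to endothelium and stroma, rose from −4.42, −4.19, −4.95 and −4.82 to −1.18 and −0.17 (3.92 ± 0.61, adjusted p = 0.0013). Runx1-deleted GMP were higher still, at 1.73 ± 0.12 (SD, n = 4). Itgax, the integrin chain CD11c of dendritic cells and monocytes, rose from −0.57, −0.56, −1.25 and −1.80 to 1.35 and 2.38 (2.91 ± 0.59, adjusted p = 0.0055), whereas it lay at −2.39 ± 0.79 in Runx1-deleted and −2.54 ± 0.77 in ERt2 GMP. The test of the difference passed for both (adjusted p = 0.0029 and 0.037). Podxl, the sialomucin podocalyxin of early blood and endothelial cells, rose from −5.64, −7.52, −8.07 and −7.58, well above background on 1 of those 4 arrays, to −0.81 and −1.73 (5.93 ± 0.97, adjusted p = 0.0017; 2.36 with normexp). In Runx1-deleted GMP Podxl was also above wild type (3.93 ± 0.59). Its means were −3.27 in Runx1-deleted, −5.86 in ERt2 and −1.27 in RUNX1-ERt2 GMP. Of 41 adhesion and niche receptors 11 rose and 9 fell, and 4 fell without RUNX1-ERt2 replicate 2 and 5 without wild-type replicate 3. Collagen Col1a2 was at −1.05, −0.81, −1.76 and −1.30 in wild type and not well above background with RUNX1-ERt2, at least 18.5-fold lower (adjusted p = 9e-05). It was already lower than wild type in Runx1-deleted GMP (−3.50 ± 0.27). Between RUNX1-ERt2 and ERt2 GMP Col1a2 did not pass (−0.43 ± 0.52, limma adjusted p = 0.77). The stromal and endothelial markers Col1a1, Col3a1, Cdh5 and Cxcl12 were not well above background on either RUNX1-ERt2 array, and 2 of them were not on any wild-type array either.

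Some of the largest differences belonged to genes of other kinds. Clic3, an intracellular chloride channel protein, rose from −5.86, −5.82, −6.49 and −6.52 to 0.01 and 0.76 (6.56 ± 0.85, adjusted p = 0.0004; 3.82 with normexp background correction), and 1 of the 4 wild-type arrays was well above background. P2rx5, an ATP-gated channel, was not well above background on any wild-type array and stood at −1.0 and 0.49 with RUNX1-ERt2, at least 46.6-fold higher (adjusted p = 3.1e-05). Tac2, a tachykinin precursor, rose by 5.64 ± 1.14 (adjusted p = 0.0053; well above background on 3 of 4 wild-type arrays), Slc27a2, a very-long-chain fatty acid ligase, by 4.73 ± 0.54 (adjusted p = 0.00018) and Plpp1, a lipid phosphatase of the cell surface, by 5.89 ± 0.80 (adjusted p = 0.00054). The test of the difference between the comparisons passed for Clic3 (0.014), P2rx5 (0.0024), Tac2 (0.04) and Slc27a2 (0.0024) and missed the threshold for Plpp1 (0.055). Plpp1 lay at −4.21 ± 0.64 (SD, n = 4) in Runx1-deleted and −2.05 ± 0.64 (SD, n = 2) in ERt2 GMP. Nrg2, a neuregulin growth factor, fell from −0.34, −0.49, −0.09 and −1.01 to −4.48 and −5.90 (−4.71 ± 0.60, adjusted p = 0.00035; −3.08 with normexp) and was well above background on 1 of the 2 RUNX1-ERt2 arrays, while it lay at −1.81 ± 0.66 in Runx1-deleted and −1.23 ± 0.38 in ERt2 GMP.

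A rescue design asks which genes altered by Runx1 deletion stand near wild type once RUNX1 is supplied. The 12 largest rises and 12 largest falls of Runx1-deleted against wild type, among genes whose arrays do not overlap and that were well above background on at least 1 array of both groups, were set beside their values with RUNX1-ERt2; both comparisons use the same 4 wild-type arrays, and the value after deletion chose the genes, so it is a description. Of the 12 that rose after deletion, 9 were still higher than wild type with RUNX1-ERt2, 5 of them in every setting. Of the 12 that fell, 4 were still lower, 4 of them in every setting, and the other 8 did not pass. The tally of falls rests on these limits: among the 12 largest falls without them, 8 were still lower and 4 did not pass, whereas 9 of the 12 rises were still higher. Several of the genes that had fallen were near wild type. Prss34, a basophil and mast cell protease, was −8.10 in the deleted cells and −0.54 ± 0.90 with RUNX1-ERt2 (adjusted p = 0.7), with levels of 2.77, 2.27, 1.95 and 1.60 in wild type and 0.25 and 2.97 with RUNX1-ERt2. Of the latter 2 arrays 1 lies below and 1 above all wild-type arrays. Arhgef25, a guanine nucleotide exchange factor, was −4.04 and 0.09 ± 0.78 (adjusted p = 0.95; 95% interval −1.64 to 1.82). Matn2, an extracellular matrix adaptor, was −4.31 and 0.31 ± 0.69 (adjusted p = 0.78), and Spon2, a secreted matrix protein, −4.02 and 0.89 ± 1.09 (adjusted p = 0.59). Npdc1 was −4.11 and −0.43 ± 0.63 (adjusted p = 0.65). Scin, an actin-severing protein, missed the threshold (−1.73 ± 0.69, adjusted p = 0.092), yet both RUNX1-ERt2 arrays lay below every wild-type array. They stood at −1.85 and 0.29, against 0.41, 0.72, 1.26 and 1.42 in wild type. With ERt2 alone Arhgef25 lay at −2.17 and −4.63, Npdc1 at −7.32 and −7.13 and Scin at −5.72 and −4.66, all below every wild-type array. Prss34 was well above background on both ERt2 arrays, which carry no RUNX1 virus. The ERt2 levels of Prss34, Matn2 and Spon2 are not given here, so these genes are not set against ERt2 alone. A p that misses the threshold does not show that a gene is at wild-type level, and the intervals are wide.

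Others of these genes stayed well below wild type with RUNX1-ERt2. Slc16a11, a monocarboxylate transporter, was −4.10 in the deleted cells and −5.21 ± 0.48 with RUNX1-ERt2 (adjusted p = 3.7e-05). Chdh, choline dehydrogenase, was −4.48 and −4.07 ± 0.43 (adjusted p = 0.0001). Afap1, an actin filament adaptor, was −5.81 in the deleted cells and at least 35.5-fold lower with RUNX1-ERt2, where it was not detected above background (adjusted p = 1.4e-05). Outside these 12, Tceal3 and Tceal6, elongation factor-like proteins with similar sequences that the probes may not separate, were not well above background on any Runx1-deleted, ERt2 or RUNX1-ERt2 array; with RUNX1-ERt2 they were at least 12.6-fold and 14.1-fold lower than in wild type. Gzmb, described above, was −5.26 in the deleted cells.

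Among the genes that had risen after deletion, part stayed above wild type. Dlk1, a membrane ligand of progenitor cells, was 5.50 in the deleted cells; it measured −4.52, −4.57, −4.92 and −4.77 in wild type and 0.02 and −0.68 with RUNX1-ERt2 (4.37 ± 0.41, adjusted p = 4.3e-05). Zfp711, a zinc finger protein, was 5.45 and 4.80 ± 0.52 (adjusted p = 0.00012; 2.42 with normexp, with 2 of 4 wild-type arrays well above background), and Fhdc1, a formin of microtubules and actin, 5.38 and 3.28 ± 0.61 (adjusted p = 0.0035). Both Fhdc1 and Dlk1 fell between Runx1-deleted and ERt2 GMP (−2.96 ± 0.61 and −1.83 ± 0.41). Treml1, a receptor of platelet granules, was 4.30 after deletion and stood at −0.62 and 0.19 with RUNX1-ERt2 against 0.43, −0.22, 0.12 and 0.97 in wild type (−0.54 ± 0.65, adjusted p = 0.58). Meg3, the maternally expressed RNA of the Dlk1 locus, was 4.21 after deletion; with RUNX1-ERt2 it was not well above background, at −7.23 and −5.58, against −5.98, −5.64, −5.02 and −3.83 in wild type (−1.28 ± 1.03, adjusted p = 0.39). Tspan18, a tetraspanin, was 4.38 and 1.06 ± 0.66 (adjusted p = 0.26). For Treml1, Meg3 and Tspan18 the RUNX1-ERt2 arrays overlap the wild-type ones. Their levels with ERt2 alone are not given here.

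**Figure D4:**
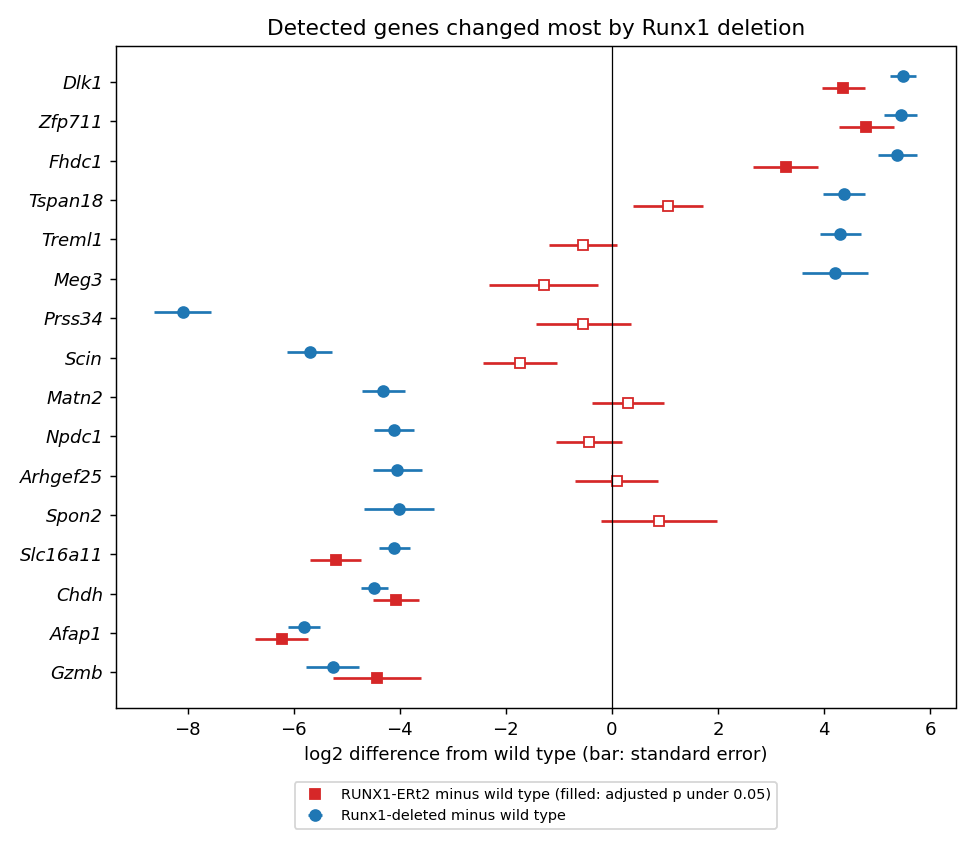
Log2 difference from wild type, with the standard error as a bar, for a part of the genes changed most by Runx1 deletion among those detected in both groups. Circles are Runx1-deleted minus wild type and squares RUNX1-ERt2 minus wild type, and filled squares are past an adjusted p of 0.05. Not all of the 12 rises and 12 falls are drawn. Of the 12 rises 9 were still higher, and Jam3 and Clec1b, among these, are left out here. Both sets of differences use the same wild-type arrays; Arhgef25, Matn2 and Npdc1 have squares near 0, while Slc16a11, Chdh and Afap1 have squares near their circles.

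A further group of genes was lower in both grafted groups. Serpinb1c, a serine protease inhibitor, measured −0.88, −0.68, −0.36 and −0.46 in wild type and −6.65 and −7.65 with RUNX1-ERt2, where it was not well above background: at least 28.7-fold lower (adjusted p = 6e-07). On the ERt2 arrays it was not well above background either, against −1.18 ± 0.14 (SD, n = 4) in Runx1-deleted GMP. Rap1a, a small GTPase of cell adhesion, had the same pattern. Its probe lay at −1.82, −1.69, −2.07 and −2.12 in wild type and was at least 11.4-fold lower with RUNX1-ERt2 (adjusted p = 1.6e-08). Zfp345 and Zfp600, zinc finger genes, were at least 9.51-fold and 12-fold lower. None of these 4 probes was well above background on any grafted array, and the test of the difference passed for none (adjusted p of 0.52 to 0.94). Pkib, an inhibitor of protein kinase A, fell from 3.08, 3.1, 2.68 and 2.87 to −0.95 and −0.81 (−3.81 ± 0.21, adjusted p = 9.4e-07) and by −4.36 ± 0.21 in the other comparison. The probes of Serpinb1c and Zfp345 hold 35% GC and those of Rap1a and Zfp600 36.7%, in the class whose median over all genes was lower in both grafted groups; the part of base composition in these falls was not tested. Genes higher in both included Pi16, a secreted peptidase inhibitor (2.17 ± 0.29 and 2.46 ± 0.29), and Sult1a1, a sulfotransferase that acts on phenolic drugs and estrogens (2.85 ± 0.56 and 2.45 ± 0.56).

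Homeobox and interferon genes were the last groups examined here. Hoxa7 and Hoxa5, factors of stem and progenitor cells, fell (−1.52 ± 0.17 and −1.62 ± 0.28, adjusted p = 0.00013 and 0.0023), Hoxa7 from 2.27, 2.35, 2.45 and 2.53 to 0.81 and 0.95; both also fell between Runx1-deleted and ERt2 GMP (−0.69 ± 0.17 and −1.15 ± 0.28). Pbx3, a cofactor of HOX proteins, rose by 1.71 ± 0.33 (adjusted p = 0.004). It was also higher after Runx1 deletion, by 1.62 ± 0.20. Of 19 Hox, Meis and Pbx genes 2 rose (1 without RUNX1-ERt2 replicate 1) and 4 fell. Of 38 type I interferon response genes 5 rose and 2 fell with RUNX1-ERt2 (median 0.03; 2 rose without RUNX1-ERt2 replicate 1, and 4 fell without wild-type replicate 3). After Runx1 deletion 26 of them were above the same wild-type arrays (median 0.84), where 10.9% of all genes were. Of 28 interferon-γ GTPases and class I genes, 7 rose and 1 fell; without RUNX1-ERt2 replicate 1, 3 rose. H2-Q7, a class I molecule, rose from 4.91, 4.93, 4.91 and 4.93 to 5.92 and 5.93 (1.01 ± 0.12, adjusted p = 0.00025), and Gbp2 and Gbp7, interferon-induced GTPases, by 0.91 ± 0.21 and 0.99 ± 0.20 (adjusted p = 0.011 and 0.0057).

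Counts in the remaining lists were small. Of 28 stem and early progenitor genes 3 rose and 5 fell (1 and 3 without RUNX1-ERt2 replicate 1). Of 18 dendritic cell and class II genes 2 rose and 1 fell, and of 12 stromal and endothelial genes 2 rose and 4 fell. Of 22 chemokines and their receptors none rose and 4 fell (median −0.76). Immediate early and heat shock genes had a median of −1.31, with 3 of 26 lower and none of them called without RUNX1-ERt2 replicate 2; between Runx1-deleted and ERt2 GMP the median was −2.36, with 9 lower. For the following lists the counts changed by more than 1.5 times, in 1 or both directions, when single arrays were left out, and the ranges over those fits are given. Toll-like receptor and NF-kB genes gave 4 higher and 2 lower of 27 (0 to 4 and 1 to 3). Acute phase genes gave 2 and 3 of 25 (1 to 3 and 2 to 4), and hematopoietic transcription factors 1 and 2 of 37 (0 to 3 and 0 to 4). Genes of estrogen and tamoxifen response gave 3 and 4 of 17 (2 to 5 and 1 to 5). Complement genes gave 3 and 1 of 17 (1 to 3 and 1 to 1), and chromatin-modifying enzymes 2 and 1 of 26 (0 to 3 and 1 to 2). Of the 8 sex-linked genes and the 8 histone genes at most 1 rose or fell in any of these fits.

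**Figure D5:**
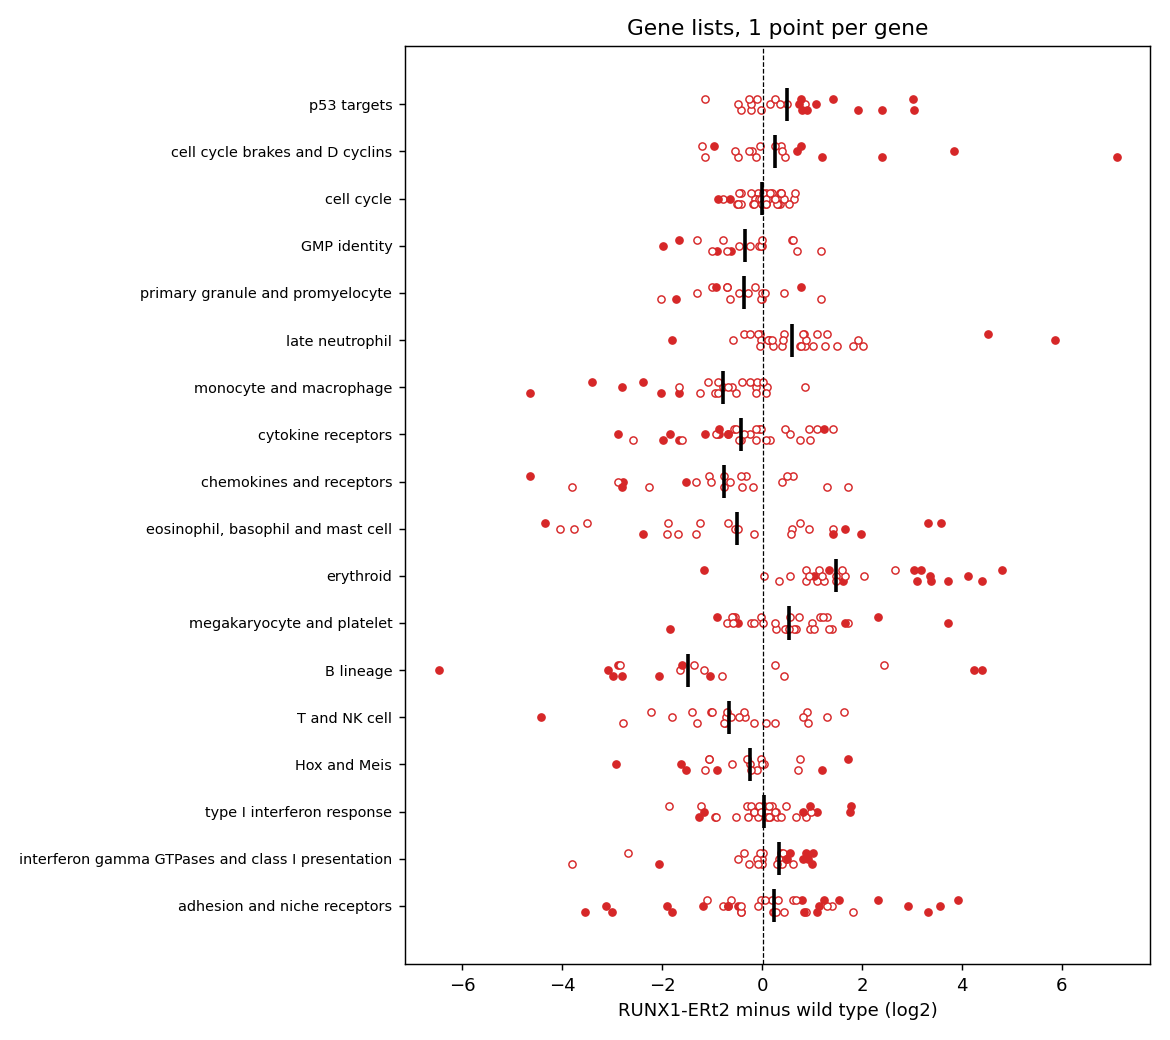
Log2 difference RUNX1-ERt2 minus wild type for every measured gene of 18 lists, 1 point per gene; filled points are past an adjusted p of 0.05, and the vertical line in each row is the list's median. The dashed line marks the median of all genes; the medians of p53 targets and erythroid genes lie to its right, and those of B lineage, monocyte and cytokine receptor genes to its left.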

How the data were processed

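Intensities of 1-colour Agilent arrays (Cy3) were read from the files as deposited; the authors' scanner software subtracted background to give the processed signal, per the file headers (Feature Extraction 10.7.3.1; the submitters' processing notes name 9.1). The deposited series matrix holds ratios of that signal to about the median of the array, made by the authors; this scale was read from a comparison with the scanner files (column medians of 0.91 to 0.941), in which the wild-type and Runx1-deleted columns matched arrays of the same group with another replicate number. It served as an alternative after log2. Control spots and outlier flags were left out, spots of a probe averaged, log2 taken and each array's 75th percentile subtracted. Probes under 34% GC were left out, as were those that no group had well above background on all of its arrays; the brightest probe stood for a gene. Names came from RefSeq accessions for 27317 of 39429 probes, otherwise from symbols, synonyms or the file. Group means over all 12 arrays were fitted with limma 3.58.1 (R 4.3.3; lmFit, eBayes) with slide as a random block (correlation 0.295), and p-values were adjusted over 17659 genes by Benjamini-Hochberg, with a threshold of 0.05. That correlation rests on the native groups alone, since each grafted group fills its own slide; on simulated data, with and without a slide effect, the fit called more false genes than its threshold states. The comparisons were RUNX1-ERt2 minus wild type, ERt2 minus Runx1-deleted, and their difference.

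Named genes were the largest rises and falls past the threshold, the largest lower bounds, up to 4 leading members of each of 39 lists, the RUNX genes, the genes largest in the difference or shared by both comparisons, and those changed most by Runx1 deletion; the text names a subset. Members and lists were chosen with earlier results of these data known. A lower bound compares the bright group's mean with, per array of the dim group, the higher of the lowest signal that counts as detected and the probe's own. The alternatives were 12 fits with 1 array left out and 16 others. A few genes are not reported here, and the marker sums leave them out. The number of arrays limits the precision.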

Additional observations from a re-analysis of the deposited data

Results flagged for a closer look

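For 48 of the genes named in this text, the change from wild type to RUNX1-ERt2 GMP differed from the change from Runx1-deleted to ERt2 GMP. Each passed a test of the difference itself (limma, adjusted p under 0.05) and the main comparison, as did 5.35% of all genes. Some genes were named for being largest in this test or after Runx1 deletion, so the count does not measure how common such differences are. The value given is the first log2 difference minus the second. It also equals Runx1-deleted minus wild type plus RUNX1-ERt2 minus ERt2. These 2 terms were 5.45 and 0.33 for Zfp711 and −7.42 and 0.04 for Fcer1a. Among cell cycle inhibitors, p53 targets and stress genes it was higher for Cdkn2a (5.68), Cdkn2b (2.97), Cdkn1a (2.44), Phlda3 (2.99), Perp (3.16), Bbc3 (2.17) and Trib3 (2.80). Among lineage genes it was higher for Vpreb1 (5.07), Hbb-bt (3.23), Erfe (4.12), Itga2b (2.55), Il4 (3.99) and Cd200r3 (3.50). It was lower for the lineage genes Dntt (−3.47), Fcrla (−3.03), Cx3cr1 (−5.43), F13a1 (−5.32), Csf1r (−2.99), Flt3 (−2.20), Fcer1a (−7.38), Mcpt8 (−4.24), Padi4 (−2.50) and Slpi (−5.39). For adhesion, matrix and surface genes the values were Jam3 (5.33), Itgax (3.06), Podxl (8.52), Dlk1 (6.2) and Col1a2 (−3.93). Regulators and interferon genes gave Runx3 (−1.40), Hoxa7 (−0.82), Pbx3 (1.66), Gbp2 (1.56) and Gbp7 (1.06). Genes of metabolism and transport gave Slc2a3 (1.42), Pfkm (1.15), Hk2 (−1.37), Chdh (−5.06), Slc16a11 (−4.84), Slc27a2 (4.91), P2rx5 (5.50) and Clic3 (5.52). The remaining values were Zfp711 (5.78), Fhdc1 (6.24), Tac2 (5.76), Nrg2 (−5.28), Afap1 (−7.20), Tceal3 (−5.96) and Tceal6 (−4.90). Some of these genes, such as Cdkn2b, P2rx5, Afap1, Fcer1a, Tceal3 and Tceal6, stayed under the detection level on all arrays of a group, and the value is then as fitted and is no bound.

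A single wild-type array, replicate 4, stood apart from the other 3 for 2 genes: Chdh at −0.22 and Phlda3 at −0.96. For Phlda3 the other 3 arrays lie almost on 1 value. Chance flags about 1 in 20 groups of 4 arrays.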

How the results depend on the processing

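Of the 182 named genes 168 were past the threshold, and 86 of these kept the call in every setting in which they were tested. The settings that ended the most calls were leaving out RUNX1-ERt2 replicate 1 or replicate 2 (40 genes each), normexp background correction (39) and leaving out wild-type replicate 3 (27); removing the GC trend and centring on the array median each ended 20 calls, and no slide term or a fixed slide term ended none. With normexp, 1327 genes were higher and 1648 lower than wild type, 1970 were lower with ERt2 than in Runx1-deleted GMP, and 379 and 375 differed between the comparisons. With slide as a fixed term the counts were 3928 and 4107 against wild type, 5427 higher for ERt2, and 1590 and 1549 for the difference; with no slide term 1055 genes were lower in the difference. Probes of at least 40% GC, a limit chosen after seeing the data, gave 1506 lower against wild type, 1719 lower for ERt2 and 422 higher in the difference; that limit removes the probes of 34% to 38% GC, which held 1015 of the lower and 232 of the higher calls against wild type. Without a filter on dim probes 8650 were higher for ERt2. The median of all genes against wild type moved to 0.15 with the array median, 0.13 with the series matrix, 0.18 without the dim filter and 0.17 at 40% GC; 52.3% of calls were higher with the series matrix and 56.6% at 40% GC. With 1 array left out the counts were 1309 to 2338 higher and 1970 to 2893 lower against wild type, 2113 to 3848 and 2554 to 3389 for ERt2, and 499 to 847 and 361 to 756 for the difference. Npm1 turned to 0.022 at 40% GC, Cox7c to −0.883 with all probes and −0.068 with the GC trend removed, and Hsd17b7 to −0.1 with that trend removed; the cause of these changes was not tested.

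Replicate numbers do not pair the samples: wild type and RUNX1-ERt2 share numbers 1 and 2 alone, with correlations of deviations of −0.054 and −0.06. With the replicate number as a replicate block in place of the slide, 4157 and 4105 genes were called against wild type, 5374 higher for ERt2, and 1726 and 1683 for the difference. With 2 arrays in each grafted group and dimmer signal there, small differences and levels near background are the least certain.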

Other observations

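Genes of metabolism were not described above. Of 27 genes of amino acid supply and the integrated stress response, 7 rose with RUNX1-ERt2 and none fell, where 11.6% of all genes rose; in 6 of them the call held in every other setting in which the gene was tested. The median of the list, 0.03, was close to that of all genes. Trib3, a pseudokinase induced by amino acid shortage, rose from −2.98, −3.05, −2.83 and −2.81 in wild type to −0.05 and −1.40 (2.19 ± 0.40, limma adjusted p = 0.0033) and gave −0.61 ± 0.40 between ERt2 and Runx1-deleted GMP. Aars, the alanyl-tRNA synthetase, rose in both comparisons (1.02 ± 0.23 and 1.32 ± 0.23).

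Of 29 glycolysis and hypoxia genes 5 rose and 1 fell (3 rose without RUNX1-ERt2 replicate 1). Slc2a3, the glucose transporter GLUT3, rose from 0.88, 0.77, 0.87 and 0.75 to 1.73 and 2.05 (1.07 ± 0.23, adjusted p = 0.0067), and Pfkm, a phosphofructokinase, by 1.06 ± 0.22 (adjusted p = 0.0062). Hk2, a hexokinase, fell from 0.96, 0.88, 0.91 and 1.15 to −0.07 and −0.15 (−1.09 ± 0.14, adjusted p = 0.00045). Of 28 cholesterol synthesis genes 7 rose and 1 fell (4 rose without RUNX1-ERt2 replicate 1); Mvd, the mevalonate diphosphate decarboxylase, rose in both comparisons (1.04 ± 0.20 and 1.70 ± 0.20). Of 33 ribosome biogenesis genes 2 rose and 4 fell (1 fell without RUNX1-ERt2 replicate 2), among them Fbl, the methyltransferase fibrillarin (−1.0 ± 0.17, adjusted p = 0.0019). Of 42 cytosolic ribosomal protein genes 4 rose (2 without RUNX1-ERt2 replicate 1), and of 31 oxidative phosphorylation genes 3 rose and 3 fell, with no rise called without RUNX1-ERt2 replicate 1 and no fall without replicate 2. Of 27 unfolded protein response genes none rose and 2 fell (1 without wild-type replicate 2 or 3, Runx1-deleted replicate 3 or either RUNX1-ERt2 array), whereas 12 rose between Runx1-deleted and ERt2 GMP, where 19.8% of all genes rose.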
